A study of Canis lupus familiaris with 4 samples.

Results

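The Snail and ZEB transcription factors and 3 proteins of the mesenchymal state were followed in MDCK strain II cells, an epithelial line from dog kidney that forms polarized cysts. The 7 genes were *SNAI1*, *SNAI2*, *ZEB1*, *ZEB2*, *VIM*, *FN1* and *SPARC*, chosen by gene symbol, and every probe set that the platform annotation ties to 1 of these symbols alone was used. This gave 15 of the 42924 probe sets on the Affymetrix canine array and 7 of the 15115 genes that the array names by a single symbol. No probe set shared one of these symbols with another gene. Probe and gene sequences are not used here.

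The 4 conditions were measured with 1 array each. HIF2α-KD cells carried a retroviral short hairpin RNA against *EPAS1*, the gene of the hypoxia-inducible factor HIF2α, and had been selected with puromycin. The labels call the comparison cells wild type, and the methods of the study describe control cells infected with the same kind of virus holding an empty hairpin cassette. Cells of each line spent 24 h in normoxia and a further 24 h either in hypoxia (1% O2) or in normoxia (16% O2). The study made several such knockdown lines and gives HIF2α-KD#1 as the one arrayed in normoxia, while the labels name no line. Because each condition is a single array, no difference below has an error or a p-value of its own, and a rule of size is used in its place.

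Epithelial-to-mesenchymal transition (EMT) is the programme by which epithelial cells give up their junctions and apical-basal polarity and take on a migratory, matrix-producing state. The zinc finger proteins of the Snail family (*SNAI1*, *SNAI2*) and the zinc finger homeobox proteins *ZEB1* and *ZEB2* bind E-box elements and repress epithelial genes, with E-cadherin (*CDH1*) as the best known target. *VIM* encodes the intermediate filament protein vimentin, *FN1* the matrix glycoprotein fibronectin and *SPARC* a secreted collagen-binding protein, all commonly read as mesenchymal markers. Hypoxia-inducible factors have been linked to this programme, and the study asked whether it takes part in the loss of epithelial organization in cells with little HIF2α. By RT-qPCR in its normoxic HIF2α-knockout lines, the study found *CDH1* lower and *SNAI1* modestly lower. It reported no significant change of *SNAI2*, *ZEB1* or *ZEB2* there, and none of *VIM*. Those lines are not the knockdown cells arrayed here, and their measurements are not used below.

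Values are the intensities deposited by the authors, on a linear scale. Median intensities of the 4 arrays were 28.2 to 29.1, and the correlations between arrays were 0.97 to 0.988. The array carries reporter probe sets, controls for sequences foreign to the dog, and 63 dim ones were taken as background. Their 95th percentile was 20.6 on the HIF2α-KD-labelled array in normoxia, 27.2 on the control array in normoxia, 24.2 on the HIF2α-KD array in hypoxia and 25.0 on the control array in hypoxia. A value under that of its own array is called below background. Differences are log2(intensity + 16) of 1 array minus that of another, a scale that understates the change of dim probe sets, and a difference of at least 1 in size is called 2-fold. They were formed for the 23493 probe sets whose highest intensity reached 28.64, the median of the table.

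The targeted gene was read first. *EPAS1* had an intensity of 32.6 on the HIF2α-KD array and 116 on the control array in hypoxia, a difference of -1.45. In normoxia it had 47.9 on the HIF2α-KD-labelled array and 44.6 on the control array, a difference of 0.08. The second *EPAS1* probe set was below background on all 4 arrays. Between oxygen levels, *EPAS1* was 2.61-fold higher in hypoxia than in normoxia in control cells (difference 1.13), and the difference was -0.40 in HIF2α-KD cells. The control array in hypoxia was thus the highest of the 4, and the difference of -1.45 rests in large part on it. Lower *EPAS1* in HIF2α-KD than in control cells was seen in hypoxia and not in normoxia, and *EPAS1* did not tell the 2 normoxic arrays apart. Every direction given below for HIF2α-KD against control in normoxia rests on the labels of these 2 arrays. Hypoxia against normoxia rests on the label of the HIF2α-KD-labelled array in normoxia for HIF2α-KD cells. For control cells it rests on the label of the control array in normoxia. The study measured the silencing of *EPAS1* in its knockdown lines separately by RT-qPCR, which is not used here, and the probe positions relative to the hairpin target are not known here.

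The 7 genes fell into a bright and a dim set. *SNAI2*, *VIM* and *FN1* were above background at every probe set on every array. *SNAI1*, *ZEB2* and *SPARC* were below background at every probe set on every array, and *ZEB1* lay between them. Of the 60 values of the 15 probe sets, 30 were below background, namely 6 on the HIF2α-KD-labelled array in normoxia, 9 on the control array in normoxia, 7 on the HIF2α-KD array in hypoxia and 8 on the control array in hypoxia. After the filter 8 probe sets of 4 genes remained, 1 for *SNAI2*, 2 for *ZEB1*, 1 for *VIM* and 4 for *FN1*. A dim probe set passed that filter only if 1 array was high, so the counts over these 8 are descriptions.

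**Figure D1:**
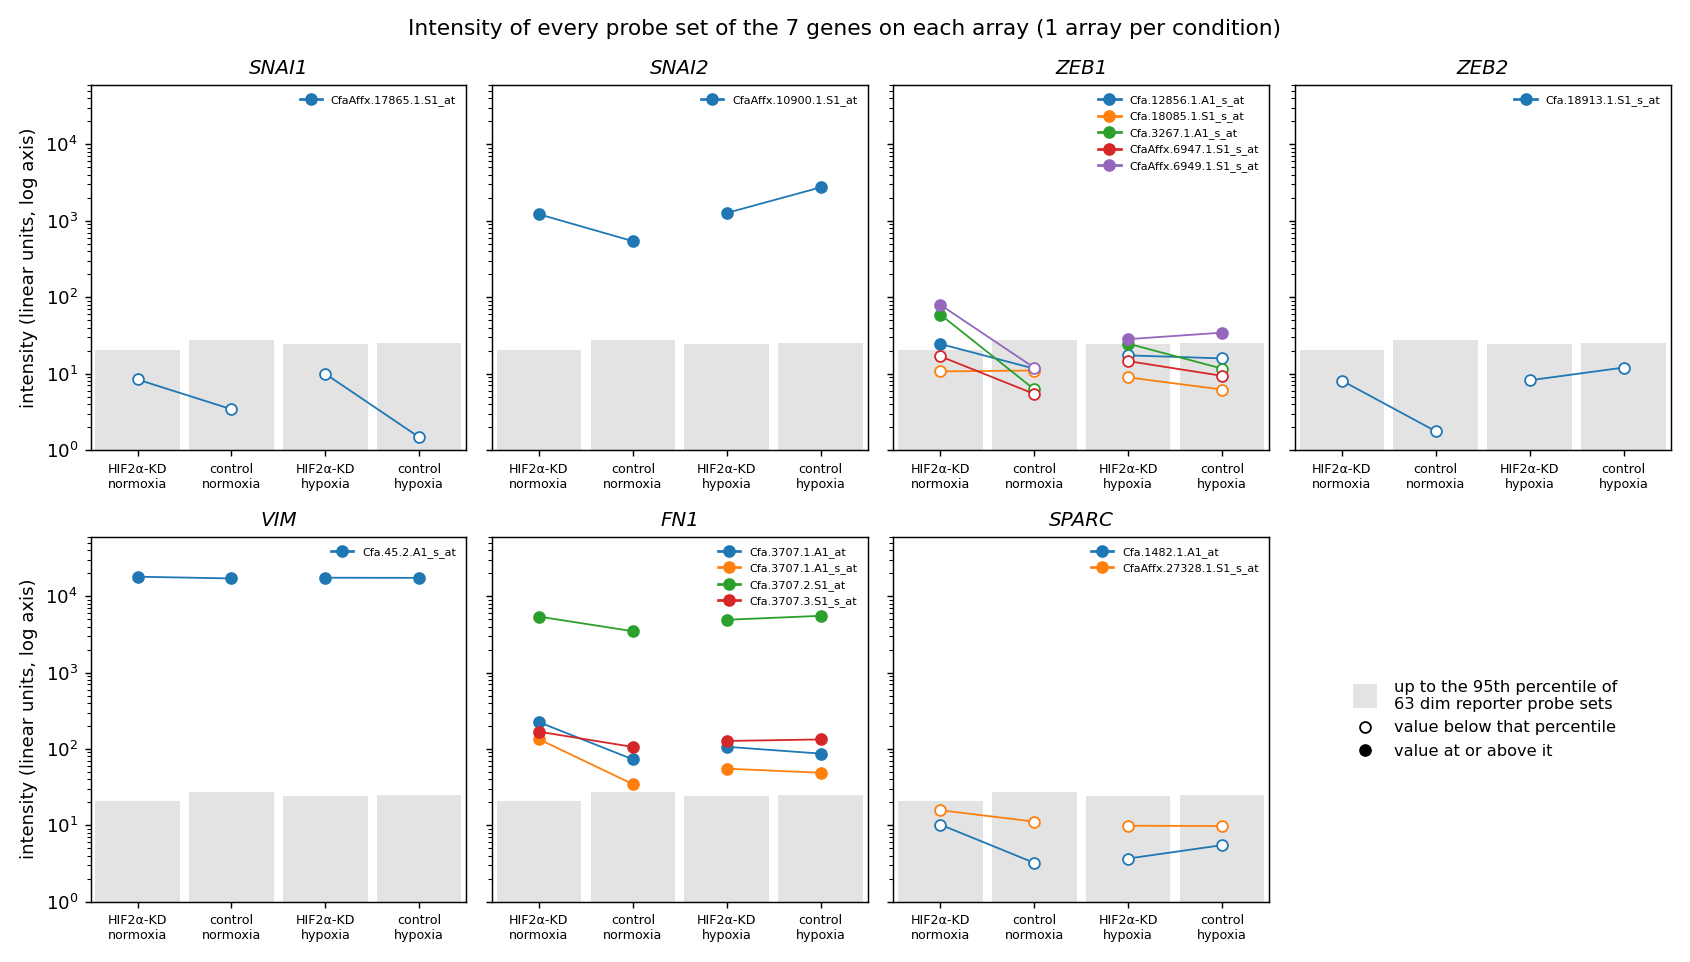
Intensity (linear units, log axis) of all 15 probe sets of the 7 genes on the 4 arrays, with 1 panel per gene, 1 point per array, and lines joining the HIF2α-KD and control arrays at the same oxygen level. Grey shading reaches up to the 95th percentile of the dim reporters of each array, and open points, 30 of 60, lie below it. *SNAI2*, *VIM* and *FN1* lie above the shading throughout, and only part of *ZEB1* does.

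*SNAI1* encodes Snail, which represses *CDH1* early in the transition. Its probe set CfaAffx.17865.1.S1_at read 8.38 on the HIF2α-KD-labelled array and 3.42 on the control array in normoxia, and 9.94 on the HIF2α-KD array and 1.47 on the control array in hypoxia. All 4 values were below background, so no fold is given, and a change of *SNAI1* mRNA was not detectable with this probe set.

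*SNAI2* encodes Slug, the other Snail family repressor, and it was the only one of the 4 factors with a clear signal on all arrays. Its probe set CfaAffx.10900.1.S1_at read 1218 on the HIF2α-KD-labelled array and 542 on the control array in normoxia. In hypoxia it read 1266 on the HIF2α-KD array and 2739 on the control array. The control arrays thus held both the lowest and the highest value, with the HIF2α-KD arrays close together between them.

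*SNAI2* intensity was 5.06-fold higher in hypoxia than in normoxia in control cells (difference 2.31), a difference that 0.217% of the probe sets kept reached or passed. The RNA was taken from whole cultures, in which more cells with the transcript and more of it per cell cannot be told apart. In HIF2α-KD cells the ratio of hypoxia to normoxia was 1.04 (difference 0.05), which 46.0% of the probe sets kept reached or passed. Set against control at the same oxygen level, *SNAI2* was 2.25-fold higher in HIF2α-KD cells in normoxia (difference 1.15), which 0.438% of the probe sets kept reached or passed. In hypoxia the ratio of HIF2α-KD to control was 0.46 (difference -1.10), and 0.558% of the probe sets kept were as low or lower. The knockdown difference was thus of opposite sign at the 2 oxygen levels, and its value in hypoxia minus that in normoxia was -2.25. With 1 array per condition this could not be tested. The 2 differences that do not use the HIF2α-KD-labelled array in normoxia, 2.31 and -1.10, share the control array in hypoxia. The value of 2.31 also rests on the label of the control array in normoxia, which *EPAS1* did not check.

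*ZEB1*, an E-box repressor that also lowers the microRNAs of the miR-200 family, had 5 probe sets, and 14 of its 20 values were below background. The brightest was CfaAffx.6949.1.S1_s_at, with 79.4 on the HIF2α-KD-labelled array and 11.9, below background, on the control array in normoxia. In hypoxia it read 28.3 on the HIF2α-KD array and 34.4 on the control array, so that the HIF2α-KD-labelled array in normoxia stood above the other 3. Taking the background of the control array as its ceiling, *ZEB1* was at least 2.92-fold higher in HIF2α-KD cells than in control cells in normoxia. With the control value as measured the difference was 1.77, which 0.111% of the probe sets kept reached or passed. With that value raised to background it was 1.14. In hypoxia the difference of HIF2α-KD from control was -0.19.

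Between oxygen levels this *ZEB1* probe set was lower in hypoxia than in normoxia in HIF2α-KD cells, with a ratio of 0.36 (difference -1.11). In control cells, with the same ceiling, it was at least 1.26-fold higher in hypoxia than in normoxia, with a difference of 0.85 that did not reach 2-fold. The hypoxic value of 34.4 lay under the highest dim reporter of the control array in normoxia, 36.1, so this order holds only for the background chosen. The knockdown difference of *ZEB1* in hypoxia minus that in normoxia was -1.96, and -1.33 with values below background raised to it. For *SNAI2* it was the 2 control arrays that lay farthest apart, and for this *ZEB1* probe set it was the HIF2α-KD-labelled array in normoxia that lay apart from the others.

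The second *ZEB1* probe set that passed the filter, Cfa.3267.1.A1_s_at, read 59.3 on the HIF2α-KD-labelled array and 6.22, below background, on the control array in normoxia. In hypoxia it read 24.7 on the HIF2α-KD array, just over the background of 24.2, and 11.6, below background, on the control array. With the background of the control array as the ceiling, it was at least 2.18-fold higher in HIF2α-KD cells than in control cells in normoxia (difference 1.76). When all values below background were raised to it, an alternative chosen after seeing the data, this difference was 0.80 and no longer 2-fold, whereas that of CfaAffx.6949.1.S1_s_at stayed above 1.

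The other 3 *ZEB1* probe sets did not pass the filter. Cfa.12856.1.A1_s_at read 24.4 on the HIF2α-KD-labelled array in normoxia, its only value above background, against 11.6 on the control array in normoxia. CfaAffx.6947.1.S1_s_at was below background on all arrays, with 16.9 on the HIF2α-KD-labelled array and 5.42 on the control array in normoxia. Cfa.18085.1.S1_s_at was also below background on all arrays, with 10.7 on the HIF2α-KD-labelled array and 10.98 on the control array in normoxia. The value of 24.4 lay under the background of the control array, 27.2, so no order between HIF2α-KD and control cells in normoxia can be read from these 3 probe sets. An excess in HIF2α-KD cells beyond background in normoxia was thus seen for 2 of the 5 *ZEB1* probe sets, which measure 1 gene in the same RNA and are not replicates of the condition.

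*ZEB2*, the close relative of *ZEB1*, had 1 probe set, Cfa.18913.1.S1_s_at. It read 8.10 on the HIF2α-KD-labelled array and 1.76 on the control array in normoxia, and 8.18 on the HIF2α-KD array and 11.99 on the control array in hypoxia. All were below background, and no fold is given.

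Among the markers, *VIM* was among the brightest probe sets on every array, ranking between 6th and 10th of 42924. Its probe set Cfa.45.2.A1_s_at read 17961 on the HIF2α-KD-labelled array and 17049 on the control array in normoxia, and 17419 on the HIF2α-KD array and 17351 on the control array in hypoxia. The 4 differences were 0.08 and 0.01 for HIF2α-KD against control in normoxia and in hypoxia, and 0.03 and -0.04 for hypoxia against normoxia in control and in HIF2α-KD cells. The highest intensities on the arrays were 18723 to 19831, so *VIM* lay near the top of the measured range, and the part of this in its small differences was not tested.

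*FN1* had 4 probe sets, all above background on all arrays. The brightest, Cfa.3707.2.S1_at, read 5398 on the HIF2α-KD-labelled array and 3477 on the control array in normoxia, and 4908 on the HIF2α-KD array and 5523 on the control array in hypoxia. It was the control array in normoxia that stood apart as the lowest. The ratio of HIF2α-KD to control was 1.55 in normoxia (difference 0.63) and 0.89 in hypoxia (difference -0.17). The ratio of hypoxia to normoxia was 1.59 in control cells (difference 0.67) and 0.91 in HIF2α-KD cells (difference -0.14), and no difference of this probe set reached 2-fold.

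A pair of dimmer *FN1* probe sets gave larger differences in normoxia. Cfa.3707.1.A1_at read 224 on the HIF2α-KD-labelled array and 73.1 on the control array in normoxia, and 107 on the HIF2α-KD array and 87.0 on the control array in hypoxia. It was 3.07-fold higher in HIF2α-KD cells than in control cells in normoxia (difference 1.43), and the difference in hypoxia was 0.25. Here it was the HIF2α-KD-labelled array in normoxia that stood apart, as for *ZEB1*, and the difference of hypoxia from normoxia was -0.97 in HIF2α-KD cells and 0.21 in control cells.

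Cfa.3707.1.A1_s_at read 134 on the HIF2α-KD-labelled array and 34.7 on the control array in normoxia, and 55.2 on the HIF2α-KD array and 48.8 on the control array in hypoxia. It was 3.87-fold higher in HIF2α-KD cells than in control cells in normoxia (difference 1.57), with a difference of 0.14 in hypoxia. In HIF2α-KD cells the ratio of hypoxia to normoxia was 0.41 (difference -1.07), and in control cells the difference was 0.36.

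The fourth *FN1* probe set, Cfa.3707.3.S1_s_at, read 168 on the HIF2α-KD-labelled array and 106 on the control array in normoxia, and 127 on the HIF2α-KD array and 133 on the control array in hypoxia. Its differences of HIF2α-KD from control were 0.59 in normoxia and -0.06 in hypoxia. All 4 *FN1* probe sets therefore read higher in HIF2α-KD than in control cells in normoxia, by 0.59 to 1.57, and disagreed on whether 2-fold was reached. In hypoxia they lay between -0.17 and 0.25.

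*SPARC* had 2 probe sets and no signal above background. Their gene identifier had no match in RefSeq, so their tie to *SPARC* rests on the platform annotation alone. Cfa.1482.1.A1_at read 10.2 on the HIF2α-KD-labelled array and 3.23 on the control array in normoxia, and 3.68 on the HIF2α-KD array and 5.51 on the control array in hypoxia. CfaAffx.27328.1.S1_s_at read 15.8 on the HIF2α-KD-labelled array and 11.2 on the control array in normoxia, and 9.90 on the HIF2α-KD array and 9.80 on the control array in hypoxia. No fold is given for either.

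Counted over the 8 probe sets kept, 5 were 2-fold higher in HIF2α-KD than in control cells in normoxia (*SNAI2*, 2 of *ZEB1* and 2 of *FN1*), where 0.626% of all probe sets kept were 2-fold higher. None was 2-fold lower, against 0.566% of all. All 8 differences were above 0, with a median of 1.29, beside 45.1% above 0 and a median of -0.03 over all probe sets kept. The *ZEB1* probe set Cfa.3267.1.A1_s_at passed the filter only through the HIF2α-KD-labelled array in normoxia, so its place in this count is not separate support. With values below background raised to it, 4 of the 8 were 2-fold higher, beside 0.519% of all. The 8 probe sets stand for 4 genes.

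In hypoxia, none of the 8 was 2-fold higher in HIF2α-KD than in control cells, against 0.157% of all probe sets kept. *SNAI2* alone was 2-fold lower, against 0.851% of all. The median over the 8 was -0.03 and that over all probe sets kept was -0.04, with 4 of 8 and 44% above 0. Whether the 8 probe sets differ between the oxygen levels in their response to the knockdown could not be tested with 1 array per condition.

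For hypoxia against normoxia in control cells, *SNAI2* alone of the 8 was 2-fold higher, where 3.46% of all probe sets kept were, and none was 2-fold lower, against 0.681% of all. All 8 were above 0, with a median of 0.34, beside 53.8% and a median of 0.03 over all. In HIF2α-KD cells none of the 8 was 2-fold higher in hypoxia than in normoxia, against 1.48% of all. The *ZEB1* probe set CfaAffx.6949.1.S1_s_at and the *FN1* probe set Cfa.3707.1.A1_s_at were 2-fold lower, against 0.626% of all. There 1 of 8 was above 0 (*SNAI2*, at 0.05), the median was -0.63, and over all probe sets kept 53.4% were above 0 with a median of 0.03. The comparisons of HIF2α-KD with control in normoxia and of hypoxia with normoxia in HIF2α-KD cells use the same HIF2α-KD array with opposite sign, so they are not separate evidence on it.

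**Figure D2:**
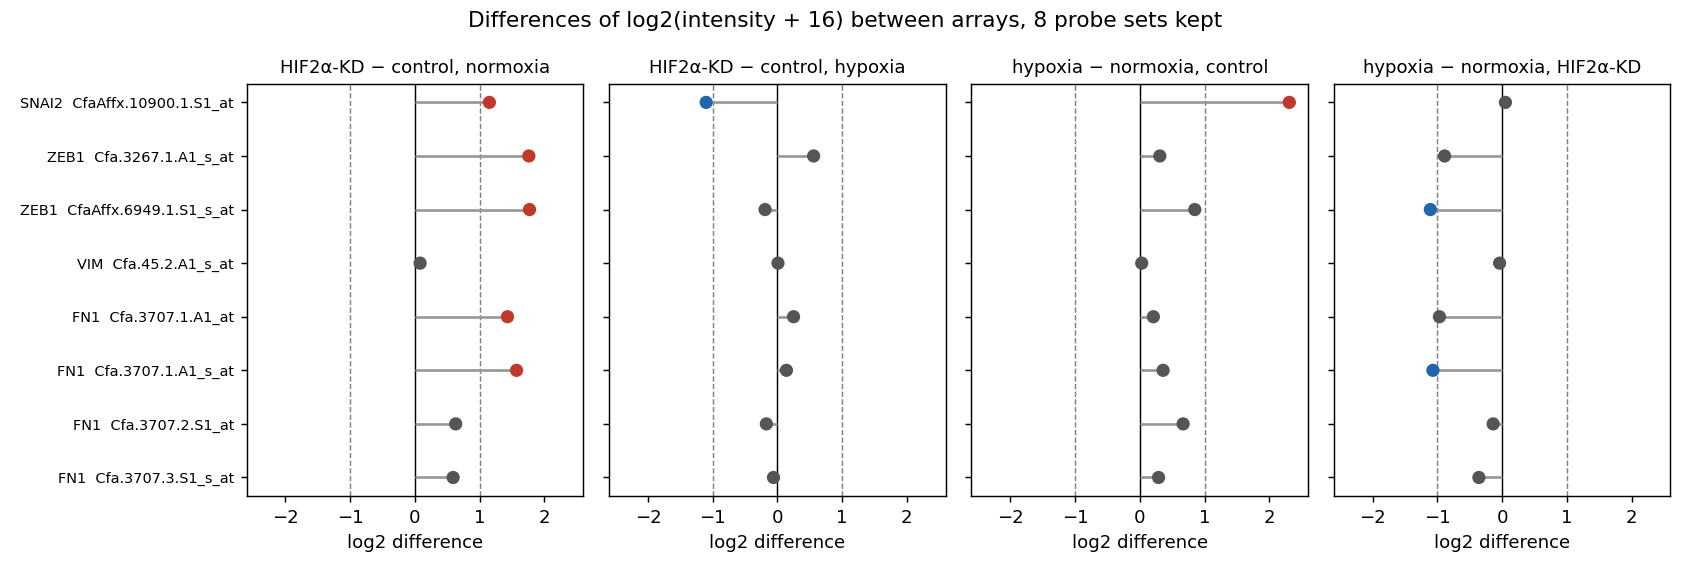
Differences of log2(intensity + 16) for the 8 probe sets kept (rows) in the 4 comparisons (panels), with dashed lines at 2-fold, red points for 2-fold higher and blue points for 2-fold lower. In the first panel 5 points lie beyond the right dashed line, and in the second only *SNAI2*, at -1.10, lies beyond a dashed line.

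A limma model with additive terms for oxygen and for cell line was fitted over the 4 arrays and all 23493 probe sets kept. It takes the knockdown difference to be the same at both oxygen levels. The 1 residual degree of freedom that it leaves holds both noise and any departure from that. The SE given below therefore do not measure a spread between replicates. For the knockdown term no probe set had an adjusted p under 0.05 (limma, Benjamini-Hochberg), so 0% were called in either direction, with 574 higher and 1719 lower at an unadjusted p under 0.05. For the oxygen term 3.08% were called higher and 0.864% lower in hypoxia. None of the 8 probe sets was called for either term. The *ZEB1* probe set Cfa.3267.1.A1_s_at had a knockdown estimate of 1.16 ± 0.30 (SE, adjusted p = 0.266), and *SNAI2*, whose knockdown differences were of opposite sign, had 0.02 ± 0.44 (SE, adjusted p = 0.993). The oxygen estimate of *SNAI2* was 1.18 ± 0.44 (SE, adjusted p = 0.179), and for *VIM* the knockdown estimate was 0.04 ± 0.06 (SE, adjusted p = 0.885).

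The genes around the 7 were read from 5 lists, each gene by its brightest kept probe set. Over the 9766 genes kept, 0.614% were 2-fold higher and 0.543% 2-fold lower in HIF2α-KD than in control cells in normoxia, and 0.102% and 0.881% in hypoxia. For hypoxia against normoxia, 3.04% were 2-fold higher and 0.543% 2-fold lower in control cells, and 1.38% and 0.420% in HIF2α-KD cells. These shares are the background for the list counts that follow.

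Epithelial genes, the targets and counterparts of the factors, comprised 24 names, of which 23 were on the array and 22 were kept. None was 2-fold different between HIF2α-KD and control cells at either oxygen level. Their median difference of HIF2α-KD from control was -0.12 in normoxia and -0.28 in hypoxia, beside medians of -0.04 and -0.04 over all genes kept. At each oxygen level 6 of 22 were above 0, beside 43.5% of all genes kept in normoxia and 44.3% in hypoxia. *MARVELD2*, which encodes the tight junction protein tricellulin, had intensities of 63.6 on the HIF2α-KD-labelled array and 140 on the control array in normoxia, a difference of -0.97, and -0.34 in hypoxia. The desmosomal plakophilin gene *PKP3* and the polarity gene *LLGL2* had differences of -0.14 and 0.03 in normoxia and of -0.74 each in hypoxia.

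*CDH1*, the main target of the Snail and ZEB repressors, was above background in hypoxia only. Its probe set read 81.4 on the HIF2α-KD array and 119 on the control array in hypoxia, and 18.9 on the HIF2α-KD-labelled array and 15.5 on the control array in normoxia. With the background of the normoxic array as the ceiling, *CDH1* was at least 3.95-fold higher in hypoxia than in normoxia in HIF2α-KD cells and at least 4.37-fold higher in control cells. Since the normoxic values were below background, no order between HIF2α-KD and control cells could be read from them in normoxia. In hypoxia the difference of HIF2α-KD from control was -0.47. In control cells *SNAI2* and its target *CDH1* were thus both more than 2-fold higher in hypoxia than in normoxia. This E-cadherin probe set was dim for an epithelial line on all 4 arrays, and how well it reports E-cadherin mRNA was not tested.

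Of 27 other mesenchymal markers, 25 were on the array and 12 were kept. *ACTA2*, smooth muscle actin, was the only one 2-fold higher in HIF2α-KD than in control cells in normoxia, with intensities of 173 on the HIF2α-KD-labelled array and 42.3 on the control array (difference 1.69). In hypoxia it read 45.0 on the HIF2α-KD array and 20.3, below background, on the control array, and it was 2-fold lower in hypoxia than in normoxia in HIF2α-KD cells (difference -1.63). The HIF2α-KD-labelled array in normoxia was thus the highest of the 4 for *ACTA2*, as it was for *ZEB1*.

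Between oxygen levels, 4 of the 12 were 2-fold higher in hypoxia than in normoxia in control cells. *TGFBI*, a TGF-beta-induced matrix protein, differed by 1.63 in control and 1.18 in HIF2α-KD cells. *CD44*, the hyaluronan receptor, differed by 1.16 in control and 0.19 in HIF2α-KD cells, and its other kept probe sets ranged between 0.56 and 1.12 in control cells and between -0.49 and -0.18 in HIF2α-KD cells. *CDH2*, which encodes N-cadherin and was named after its values were seen, differed by 1.15 in control and 0.35 in HIF2α-KD cells, while its other kept probe set gave 0.25 and -0.14 and did not share the call. *MSN*, the membrane-actin linker moesin, differed by 1.52 in control and 0.80 in HIF2α-KD cells and was the only one 2-fold lower in HIF2α-KD than in control cells in hypoxia (-1.02). Its other kept probe sets ranged there between -0.73 and -0.01, so they did not share the call, and between -0.26 and 1.37 for hypoxia against normoxia in control cells. With quantile normalization none of the 12 was called for HIF2α-KD against control in hypoxia.

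The 16 other EMT transcription factors gave 12 on the array and 6 kept, and none was 2-fold different in any of the 4 comparisons. *SOX9*, a Sry-box factor, came closest, with 68.4 on the HIF2α-KD array and 148 on the control array in hypoxia (difference -0.96), and a difference of -0.62 in normoxia. *YAP1*, the Hippo pathway co-activator, had differences of HIF2α-KD from control of -0.54 in normoxia and -0.62 in hypoxia, and *TEAD1*, its DNA-binding partner, had -0.18 and -0.51. *RUNX1* was above background only on the HIF2α-KD array in hypoxia, at 29.1.

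Of the 14 receptors and partners of fibronectin and SPARC, all were on the array and 10 were kept. The basement membrane collagen genes *COL4A1* and *COL4A2* were the 2 that were 2-fold higher in HIF2α-KD than in control cells in normoxia. *COL4A1* read 2300.2 on the HIF2α-KD-labelled array and 834 on the control array in normoxia (difference 1.45), and 2508 on the HIF2α-KD array and 1641 on the control array in hypoxia (difference 0.61). Its other 2 kept probe sets differed by 1.06 and 1.38 in normoxia. *COL4A2* differed by 1.23 in normoxia and 0.61 in hypoxia, while its other kept probe set differed by 0.44 in normoxia. Of the receptors, the integrin gene *ITGAV* had differences of 0.49 in normoxia and -0.54 in hypoxia, and the syndecan gene *SDC4* -0.01 and -0.83. The other kept probe sets of *ITGAV* ranged between 0.38 and 0.51 in normoxia and between -0.60 and 0.03 in hypoxia. Those of *SDC4* ranged between 0.03 and 0.17 in normoxia and between -0.85 and -0.33 in hypoxia.

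The TGF-beta inputs and regulators of the Snail factors gave 14 on the array of 14 and 9 kept. For HIF2α-KD against control, 2 of 9 were above 0 in normoxia (median -0.12) and 0 of 9 in hypoxia (median -0.11). Over all genes kept, 43.5% and 44.3% were above 0, with medians of -0.04 and -0.04. *TGFB2*, a ligand that induces the transition in many epithelia, read 1411 on the HIF2α-KD-labelled array and 698 on the control array in normoxia, a difference of 1.00 at the 2-fold limit that was no longer called after median centring. In hypoxia it read 1704 on the HIF2α-KD array and 1843 on the control array, so that, as for *SNAI2*, the control array in normoxia was the lowest and the control array in hypoxia the highest. *TGFB2* was 2-fold higher in hypoxia than in normoxia in control cells (1.38), with 0.27 in HIF2α-KD cells. Its other kept probe set gave 1.82 and 0.41 there, and 0.85 for HIF2α-KD against control in normoxia, where it did not share the call. The signal transducers *SMAD2* and *SMAD4* had differences of hypoxia from normoxia of 0.79 and 0.64 in control and of 0.69 and 0.63 in HIF2α-KD cells. *GSK3B*, the kinase that marks Snail for degradation, had differences of HIF2α-KD from control of -0.70 in normoxia and -0.73 in hypoxia.

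**Figure D3:**
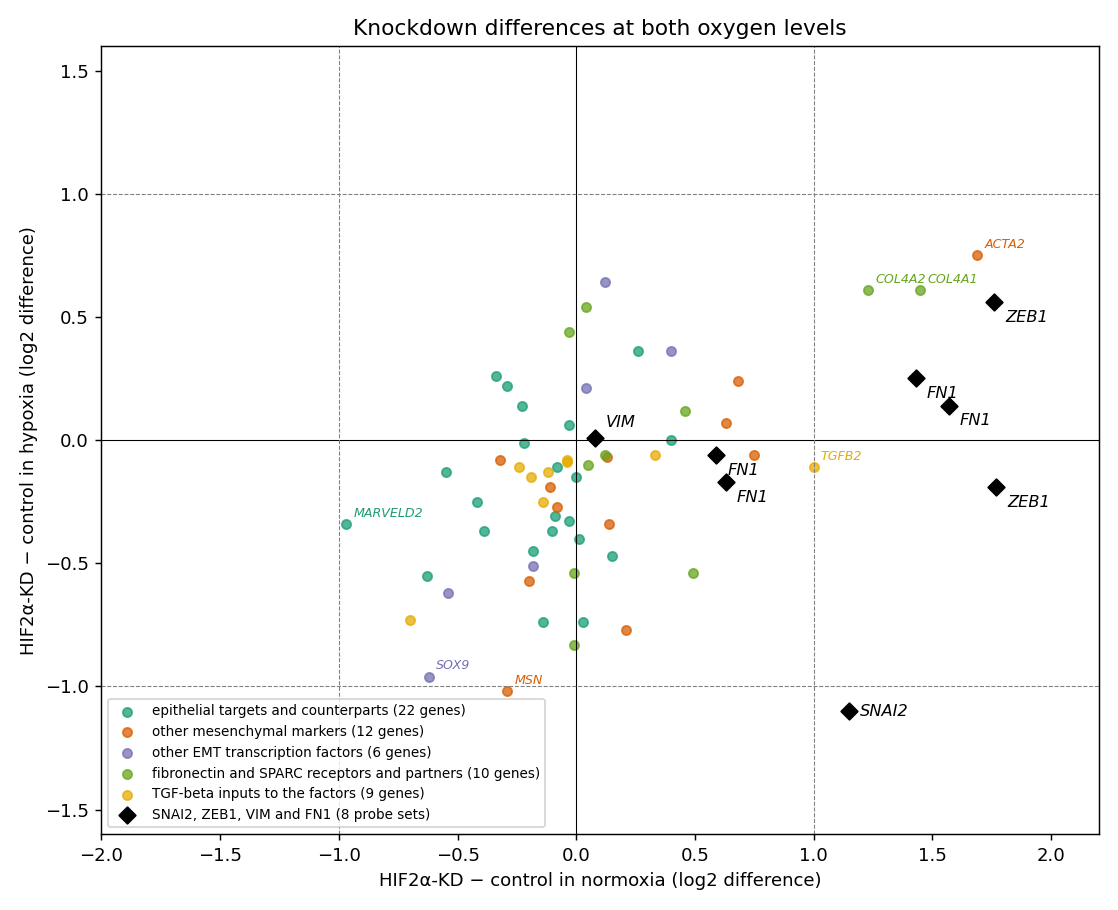
Difference of HIF2α-KD from control in normoxia (x axis) against that in hypoxia (y axis), both on the log2 scale, with 1 diamond for each of the 8 kept probe sets of *SNAI2*, *ZEB1*, *VIM* and *FN1* and 1 circle for each kept gene of the 5 lists. Dashed lines mark 2-fold, and *SNAI2* is the only diamond beyond the lower one, at 1.15 in normoxia and -1.10 in hypoxia.

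The genes nearest in profile were sought among 9493 other genes kept, with symbols that begin with LOC left out. Nearness was the Euclidean distance of mean-centred log2 values over the 4 arrays. The search was made for the genes whose brightest kept probe set ranged over at least 1 on that scale, *SNAI2* and *ZEB1*. Nearest to *SNAI2* were *DPP4* (a cell surface peptidase, distance 0.37), *FST* (the activin-binding protein follistatin, 0.39), *PTGS2* (the inducible prostaglandin synthase, 0.39), *FLRT2* (0.42) and *DHRS2* (0.50). *PTGS2* read 6408 on the HIF2α-KD-labelled array and 2003 on the control array in normoxia, and 6191 on the HIF2α-KD array and 11974 on the control array in hypoxia. All 5 were lowest on the control array in normoxia and highest on the control array in hypoxia, as *SNAI2* was.

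Nearest to *ZEB1* (CfaAffx.6949.1.S1_s_at) were *SLC4A11* (a membrane transporter, distance 0.13), *SNAP91* (a clathrin assembly protein, 0.31), *CASP12* (0.39), *CHRM1* (a muscarinic receptor, 0.43) and *CD40* (a TNF receptor family member, 0.44). *SLC4A11* read 397 on the HIF2α-KD-labelled array and 105 on the control array in normoxia, and 192 on the HIF2α-KD array and 194 on the control array in hypoxia. All 5 were highest on the HIF2α-KD-labelled array in normoxia. The distances rest on 4 arrays and describe those arrays only.

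**Figure D4:**
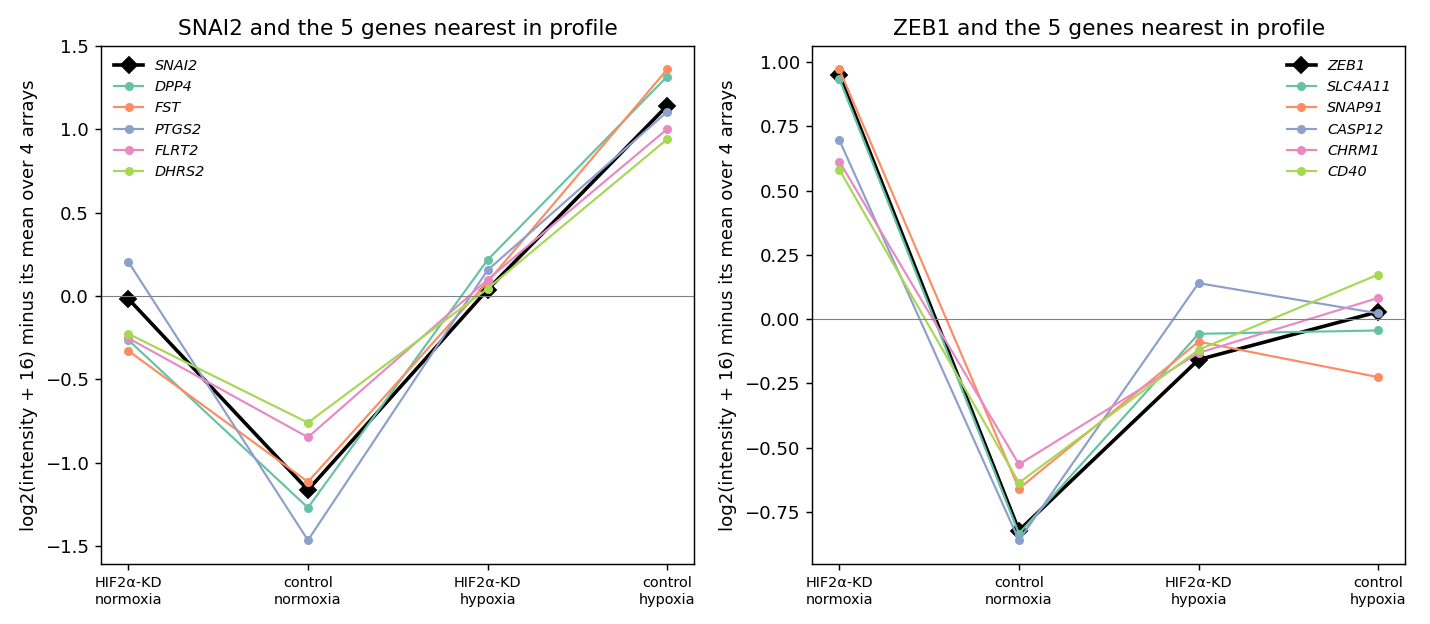
Mean-centred log2(intensity + 16) on the 4 arrays for *SNAI2* (left, black) and *ZEB1* (right, black) with the 5 genes nearest to each in Euclidean distance, 1 point per array. The *SNAI2* group is lowest in control normoxia and highest in control hypoxia, and the *ZEB1* group is highest on the HIF2α-KD-labelled array in normoxia.

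Markers of cell types were read beside these results. Of 8 kidney epithelial markers, 7 were on the array and 5 were kept, with *KRT18* at 13257 to 13868 and *EPCAM* at 10064 to 11719, while the nephron factors *PAX8* and *PAX2* were below background on all arrays. Summed intensities of the 7 were 25975 on the HIF2α-KD-labelled array and 27899 on the control array in normoxia, and 27704 on the HIF2α-KD array and 27397 on the control array in hypoxia. Of 7 fibroblast markers only *PDGFRA* was kept, with 33.8 on the HIF2α-KD-labelled array and 31.5 on the control array in normoxia, and 75.7 on the HIF2α-KD array and 145 on the control array in hypoxia. *LUM* was above background on the HIF2α-KD-labelled array in normoxia alone, at 27.8 against 19.8 on the control array, and the other 5 (*PDGFRB*, *COL1A1*, *COL1A2*, *COL3A1* and *DCN*) were below background on all 4 arrays. The fibroblast list summed to 106 on the HIF2α-KD-labelled array, with 2 of 7 above background, and to 103 on the control array in normoxia, with 1 of 7. In hypoxia it summed to 149 on the HIF2α-KD array and 215 on the control array, with 1 of 7 above background on each, and the part of these cells in the results was not tested. Of 5 endothelial markers only *CDH5* was kept, at 88.8 to 117. The 5 leukocyte markers had intensities of at most 90.9, but 4 of them were kept and above background on all 4 arrays. What these dim values report in an epithelial line was not tested.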

How the data were processed

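Total RNA of 4 MDCKII cultures was labelled as biotinylated cRNA and hybridized to Affymetrix canine arrays, 1 per condition. The authors deposited linear-scale intensities, 1 per probe set on each array. How they were summarized, background-corrected and scaled, and with which software, is not given in the sources used here. Of 42924 probe sets, 29254 have 1 symbol, 439 several and 13167 none in the platform annotation, and 64 are reporters, 1 of them bright and left out. Of the 7 genes, 6 had identifiers that matched the same symbol in RefSeq, and the identifier of *SPARC* had no match there. Values were analysed as log2(intensity + 16). A filter at the table median (28.64) kept 23493 probe sets (54.8%). Folds against a value below background use the background of that array as a bound. limma 3.58.1 (R 4.3.3) was fitted with trend, and its code was first run on simulated data. Those data had the same knockdown difference at both oxygen levels, so they do not cover probe sets where it differs. Other computation used Python 3.11.15. The number of arrays limits the precision.

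The 7 genes, the lists and the alternatives were chosen with earlier results of these data known. Named are the 7 genes, *EPAS1*, up to 4 genes of each list with the largest difference in any comparison, and the 5 genes nearest in profile. Outside this rule, *CDH2* and the markers of the cell type lists were named after their values were seen. Alternatives were quantile normalization, median centring, pseudocounts of 1 and 64, other filters, 1.5-fold, other backgrounds and other limma settings.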

Additional observations from a re-analysis of the deposited data

Results flagged for a closer look

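*SNAI2* was singled out because its difference of HIF2α-KD from control was 1.15 in normoxia and -1.10 in hypoxia, 2-fold or more in opposite directions at the 2 oxygen levels. The difference between these values was not tested, since each condition is 1 array. The value in normoxia includes the HIF2α-KD-labelled array on which *EPAS1* was not lower than in control cells, and the value in hypoxia does not.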

How the results depend on the processing

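Of 160 values of the 8 kept probe sets under other settings, 150 stayed on the same side of 2-fold, 5 dropped under it, 5 passed it and 0 changed sign once called. The count of the 8 that were 2-fold different was 5 for HIF2α-KD against control in normoxia, 1 in hypoxia, 1 for hypoxia against normoxia in control cells and 2 in HIF2α-KD cells. With a pseudocount of 1 the last 3 counts were 2, 2 and 4. With a pseudocount of 64 they were 3 in the first comparison, where the *ZEB1* probe sets Cfa.3267.1.A1_s_at and CfaAffx.6949.1.S1_s_at dropped to 0.81 and 0.92, and 0 in the last. With the filter at the 75th percentile (174.7), which removes dim probe sets, they were 2 in the first and 0 in the last. At 1.5-fold they were 3 for hypoxia against normoxia in control cells and 4 in HIF2α-KD cells. With each gene as the mean of its kept probe sets, chosen after seeing the data, 3 of 4 genes were 2-fold higher in HIF2α-KD than in control cells in normoxia. The share over all genes was not computed from such means, and by brightest kept probe set it was 0.614%. The mean over all 5 *ZEB1* probe sets was 0.94, under 2-fold. The mean for *FN1* was 1.06, but its brightest probe set, at 0.63, was not 2-fold. *SNAI2* kept its calls in the 3 comparisons where it had one under quantile normalization, median centring and both pseudocounts. Values below background were 30 of 60 against the 95th percentile of the reporters, 35 against the highest dim reporter and 7 against their median. On the control array in normoxia the highest dim reporter was 36.1, above the *FN1* probe set Cfa.3707.1.A1_s_at at 34.7. The *ZEB1* probe set CfaAffx.6949.1.S1_s_at was under the highest dim reporter on the HIF2α-KD and the control array in hypoxia.

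Over all probe sets kept, the same 4 comparisons gave 280, 237, 973 and 495 at 2-fold. With a pseudocount of 1 they gave 629, 570, 1687 and 1001, with 64 they gave 141, 78, 467 and 236, with the stricter filter 186, 133, 624 and 322, and at 1.5-fold 1522, 1589, 3783 and 2261. The knockdown term of limma called 0 probe sets, 9 with robust moderation, 1 after quantile normalization and 3 with a pseudocount of 64. The oxygen term called 927, and 405 without trend. None of these calls was one of the 8. The causes of these shifts were not tested. No paired analysis was possible because each condition has 1 array, and for the same reason no array could be left out within a condition.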
